A study of Mus musculus with 12 samples.

Results

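The matrix metalloproteinases (MMPs) Mmp2, Mmp3, Mmp7, Mmp9, Mmp10, Mmp13 and Mmp14 and their tissue inhibitors Timp1, Timp2 and Timp3 were chosen by gene name, 10 genes of the 57278 in the count table, and followed in cultured mouse pancreatic tumor cells with and without rDKK3, the recombinant form of the secreted glycoprotein DKK3. The lines DDKC_9750, DDKC_9790 and DDKC_9804 were derived from tumors of Dkk3-/- mice that also carried Ptf1a Cre/+, which drives Cre in pancreatic epithelium. All groups therefore shared the Dkk3 knockout, which the mice carried in every tissue, and the same tumor model, and each line was grown from mouse tumor cells in serum-containing medium. Untreated and rDKK3-treated cells of each of the 3 lines gave 2 libraries each, 12 in all. The dose of rDKK3 used for the RNA samples is not given in the sources used here.

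MMPs are zinc-dependent proteases that cut collagens, other matrix proteins and cell surface proteins. Most are secreted as inactive proenzymes, while Mmp14 encodes MT1-MMP, which is anchored in the plasma membrane and cuts collagen at the cell edge. TIMPs bind the active site of MMPs and block it, but TIMP2 has a second role, because it bridges pro-MMP2 to MT1-MMP so that a free neighbouring MT1-MMP can activate it. In pancreatic cancer much of the MMP2 and MMP9 of a tumor is known to come from fibroblasts and leukocytes, and MMP7 is known from ductal metaplasia and tumor epithelium.

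Library totals ran from 7520741 to 24541083 counts in untreated and from 3822987 to 11567095 counts in rDKK3-treated cells. Paired libraries of a line and condition were compared over 12979 genes averaging 20 counts or more, and their deviance averaged 6.43 for each degree of freedom, and 0.782, within sampling noise, after a shift of each gene shared by all pairs was fitted. They were summed and counted as 1 sample, giving 6 samples, and whether they came from separate cultures is not stated, so p-values measure the spread between these samples. Levels are in CPM (counts relative to the TMM-adjusted library total), and 3 counts, the floor below which a level cannot be told from 0, were 0.0855 to 0.291 CPM in the summed samples. Dkk3 had 0 counts in all libraries but 1 treated library of DDKC_9750, which had 1 count. The ductal keratins Krt8, Krt18 and Krt19 were abundant, and the epithelial surface gene Epcam stood at 0.410 to 2.04 CPM. All 3 keratins were lower with rDKK3 in each line, Krt19 at 1158 untreated and 783 CPM treated in DDKC_9750, 2071 and 1384 CPM in DDKC_9790, and 1503 and 1066 CPM in DDKC_9804, and none was called over the lines (adjusted p = 0.595 for Krt19, edgeR). The summed list of 7 ductal genes was likewise lower in each line, at 5327 to 9772 CPM untreated and 4085 to 8072 CPM with rDKK3. Not all of its genes fell. Sox9 was higher with rDKK3 in each line, at 108 and 146 CPM, 130 and 148 CPM, and 299 and 392 CPM in the same order. Cdh1 was at 787 and 1047 CPM in DDKC_9750, 652 and 602 CPM in DDKC_9790, and 310 and 353 CPM in DDKC_9804. At or under the floor in all 6 samples were 2 of 8 fibroblast markers (Dcn and Lum), 4 of 6 macrophage markers (Ptprc, Adgre1, Lyz2 and Itgam) and 3 of 4 neutrophil markers (S100a8, S100a9 and Csf3r). The summed fibroblast list stood at 7.27 to 13.3 CPM untreated and 5.74 to 12.3 CPM with rDKK3, and the macrophage list at 9.55 to 29.0 and 10.5 to 45.9 CPM. Within the fibroblast list Pdpn stood at 0.266 CPM untreated and 4.26 CPM treated in DDKC_9750, where Col1a1 was at 11.2 and 6.69 CPM and Pdgfra at 1.70 and 0.678 CPM, and in DDKC_9804 Pdgfra stood at 0.826 and 4.26 CPM and Pdgfrb at 4.33 and 0.492 CPM. The macrophage list was higher with rDKK3 in each line. The endothelium list of 4 genes, most of it Kdr, stood at 1.40 CPM untreated and 0.969 CPM treated in DDKC_9750, 15.3 and 10.5 CPM in DDKC_9790, and 8.06 and 17.4 CPM in DDKC_9804. The list of 5 mesenchymal genes stood at 7636 and 7529 CPM, 11238 and 10809 CPM, and 20680 and 22251 CPM in the same order. Among them Vim was lower with rDKK3 in each line, at 2598 and 1612 CPM, 4782 and 3401 CPM, and 3376 and 2757 CPM. Cdh2 was lower in DDKC_9750 and DDKC_9804 and higher in DDKC_9790, and Zeb1 was lower in DDKC_9750 alone. Fn1 and Snai2 were higher in each line, Snai2 at 12.8 and 43.0 CPM in DDKC_9804. The part of these markers in the members' levels was not tested.

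Per transcript length, Mmp14 was the highest of the 7 listed MMPs and Timp2 the highest of the 3 TIMPs in all 6 samples, and the gelatinase transcripts Mmp9 and Mmp2 were at 0 or at most 2.54 CPM. Mmp3 was highest in DDKC_9750 and Mmp10 in DDKC_9804, in both conditions. Of the 7 members that could be tested on summed counts, 0 were called for rDKK3 across the 3 lines, and Mmp3 was lower with rDKK3 in one line and higher in another. In DDKC_9804 the levels of Mmp13, Mmp10, Mmp3 and Mmp2 were higher with rDKK3, while in DDKC_9750 Mmp3 was lower.

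**Figure D1:**
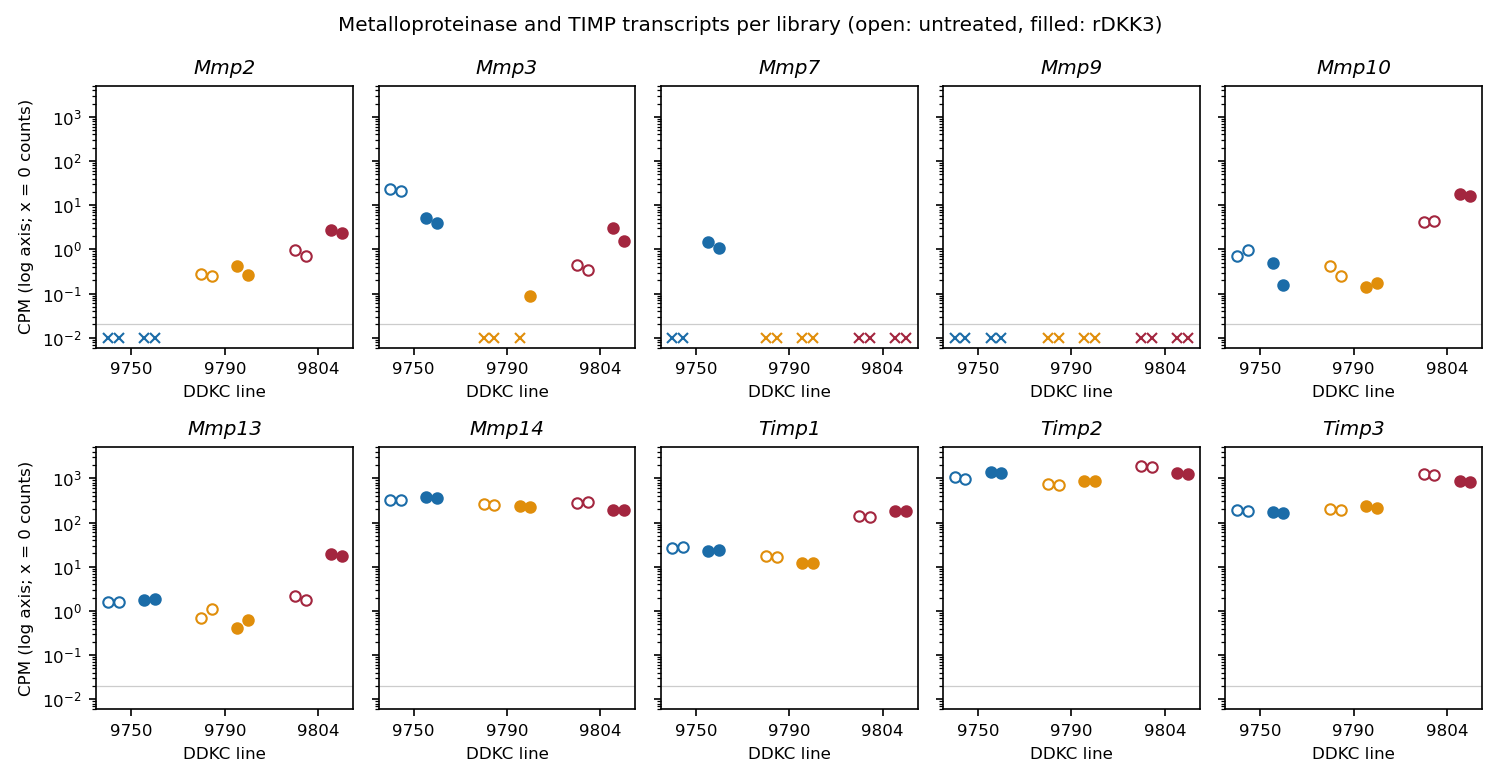
Level of each of the 10 genes in the 12 libraries, as CPM on a log axis, by DDKC line, with open symbols for untreated and filled symbols for rDKK3-treated cells and crosses for 0 counts. Mmp14, Timp2 and Timp3 lie above 150 CPM in all 12 libraries, Mmp9 has 0 counts in all of them, and Mmp3 ranges from 0 counts in 3 libraries of DDKC_9790 to 23.5 CPM in DDKC_9750.

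Mmp14 (ENSMUSG00000000957.12, chr14:54669069-54682821 on GRCm39) had the highest level of the 7 MMPs. In bulk RNA a level does not tell fewer expressing cells from less RNA per cell, for this and all other genes. Its untreated level was 327 and 322 CPM in the 2 libraries of DDKC_9750, 263 and 252 CPM in DDKC_9790, and 283 and 286 CPM in DDKC_9804. With rDKK3 it was 373 and 354 CPM in DDKC_9750, 236 and 229 CPM in DDKC_9790, and 193 and 196 CPM in DDKC_9804. Both treated libraries thus lay above both untreated ones in DDKC_9750 and below them in the other 2 lines, and over all lines the untreated range of 252 to 327 CPM was enclosed by the treated range of 193 to 373 CPM. The ratio of treated to untreated level was 1.12 in DDKC_9750 (95% exact counting interval 1.08 to 1.17), 0.913 in DDKC_9790 (0.878 to 0.950) and 0.686 in DDKC_9804 (0.656 to 0.717). These intervals were computed from the summed counts of a line, so they cover counting error only and leave out the variation between cultures. They take each count as a separate molecule. Over the 3 lines the log2 fold change was -0.17 (SE 0.17, adjusted p = 0.789, edgeR quasi-likelihood test on summed counts). The gene overlaps Gm56768 on the same strand, which held 714 counts in all libraries beside 36031 for Mmp14.

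The gelatinases, which cut denatured collagen and the type IV collagen of basement membranes, gave little signal. Mmp9 (ENSMUSG00000017737.3, chr2:164782700-164797770) had 0 counts in all 12 libraries, which allows no more than the floor of 0.0855 to 0.291 CPM in a summed sample. Mmp2 (ENSMUSG00000031740.9, chr8:93553919-93580048) had 0 counts in the 4 libraries of DDKC_9750, 2 to 4 counts in each of the 4 libraries of DDKC_9790, and 11 and 17 counts untreated and 13 and 18 counts with rDKK3 in DDKC_9804. In CPM, which takes the smaller treated libraries into account, the DDKC_9804 values were 0.976 and 0.717 untreated and 2.80 and 2.39 with rDKK3. Only DDKC_9804 held more than a trace of Mmp2, and there both treated libraries were above both untreated ones, by 3.19-fold in the summed samples (1.85 to 5.51). Mmp2 did not pass the filter on low counts in the summed fit, and with 12 separate libraries its log2 fold change of 1.23 (SE 0.37) had an adjusted p of 0.0549 (edgeR). Once the shift between paired libraries was in that fit it was called, with a log2 fold change of 1.31 (SE 0.34, adjusted p = 0.0348, edgeR), where 20.6% of all genes were. Both of these fits count paired libraries as separate samples, and on summed counts with no filter on low counts its log2 fold change was 1.13 and its adjusted p 0.938 (edgeR). Gm45472, on the opposite strand at the same place, held 147 counts beside 71 for Mmp2, and the authors counted by strand.

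Mmp3, Mmp10, Mmp13 and Mmp7 belong to the cluster of secreted MMP genes on chromosome 9, where the order from Mmp13 to Mmp7 is Mmp13, Mmp12, Mmp1b, Mmp3, Mmp1a, Mmp10, Mmp8, Mmp27, Mmp20 and Mmp7. Of the other 6 genes of the cluster, Mmp12 had 1 count, Mmp27 had 2, and Mmp1a, Mmp1b, Mmp8 and Mmp20 had 0 over the 12 libraries, so the signal of the cluster came from the 4 listed members. MMP genes of this cluster are known for a binding site of AP-1, the dimer of Fos and Jun proteins, close to the transcription start. The 200 bases before each gene's annotated start in the count table were therefore read from GRCm39 (all 4 on the plus strand, 5′ to 3′), with the letters TGANTCA in capitals where found on either strand.

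Mmp3, chr9:7445622-7445821: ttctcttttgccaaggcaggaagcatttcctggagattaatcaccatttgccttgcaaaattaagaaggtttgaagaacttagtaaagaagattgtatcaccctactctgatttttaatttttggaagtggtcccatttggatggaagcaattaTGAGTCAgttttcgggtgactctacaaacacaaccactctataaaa
Mmp10, chr9:7502153-7502352: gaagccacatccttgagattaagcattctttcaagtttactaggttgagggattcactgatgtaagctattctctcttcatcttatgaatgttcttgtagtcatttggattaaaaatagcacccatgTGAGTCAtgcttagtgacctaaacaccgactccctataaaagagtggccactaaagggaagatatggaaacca
Mmp13, chr9:7272314-7272513: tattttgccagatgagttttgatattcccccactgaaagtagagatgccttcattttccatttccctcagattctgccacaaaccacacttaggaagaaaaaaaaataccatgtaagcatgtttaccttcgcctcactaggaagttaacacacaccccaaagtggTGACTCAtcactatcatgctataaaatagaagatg
Mmp7, chr9:7691891-7692090: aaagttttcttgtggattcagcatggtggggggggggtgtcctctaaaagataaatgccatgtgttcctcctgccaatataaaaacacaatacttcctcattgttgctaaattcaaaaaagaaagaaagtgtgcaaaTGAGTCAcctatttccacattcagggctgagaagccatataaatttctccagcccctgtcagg

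The letters stand 46 to 40 bases before the start in Mmp3, 73 to 67 in Mmp10, 35 to 29 in Mmp13 and 63 to 57 in Mmp7. They were present in these 4 of the 10 members and in 4.84% of the 21652 windows of protein-coding genes. The letters TTCNNNGAA, the core that STAT factors bind, were in 0 of the 10 windows and in 5.80% of all windows. A match of letters is a description of the sequence and no measurement of binding. The 4 genes shared these letters but not one pattern of expression, as their levels show.

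Mmp3 (stromelysin-1, ENSMUSG00000043613.9, chr9:7445822-7455975) degrades proteoglycans, laminin and E-cadherin and activates other proenzymes. In untreated DDKC_9750 it stood at 23.5 and 20.8 CPM, and with rDKK3 at 5.03 and 3.95 CPM. Both treated libraries of this line were below both untreated ones, and the summed level, from 652 counts untreated and 45 counts treated, was 4.97-fold lower with rDKK3 (3.67 to 6.89), or 4.67-fold and 5.28-fold lower in the 2 library pairs. In DDKC_9790 the gene had 0 counts in 3 libraries and 1 count in a treated library. In DDKC_9804 it stood at 0.444 and 0.337 CPM untreated and at 3.02 and 1.59 CPM with rDKK3, from 5, 8, 14 and 12 counts. There the summed level was 5.76-fold higher with rDKK3 (2.85 to 12.2), the opposite direction to DDKC_9750. Untreated DDKC_9750 exceeded untreated DDKC_9804 by 58.6-fold and the floor of untreated DDKC_9790 by at least 169-fold. With rDKK3 the levels of DDKC_9750 and DDKC_9804 were 4.36 and 2.13 CPM, 2.05-fold apart. The fold change common to the lines, -0.21 on the log2 scale, had an SE of 1.27 and an adjusted p of 0.968 (edgeR).

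Mmp10 (stromelysin-2, ENSMUSG00000047562.4, chr9:7502353-7510241), the nearest relative of Mmp3, was highest in DDKC_9804. Its untreated level there was 4.26 and 4.34 CPM, and with rDKK3 it was 18.1 and 15.8 CPM. The libraries of the 2 conditions did not overlap, and the summed level was 3.87-fold higher with rDKK3 (3.12 to 4.81). In DDKC_9750 it was 0.702 and 0.976 CPM untreated and 0.503 and 0.158 CPM treated, and in DDKC_9790 it was 0.414 and 0.249 CPM untreated and 0.140 and 0.174 CPM treated. The treated values in these 2 lines rest on 3 counts each, the floor itself, and the ratios of 0.336 (0.0651 to 1.10) and 0.539 (0.0899 to 2.36) had intervals that include 1. Over the lines the log2 fold change was 0.56 (SE 0.78, adjusted p = 0.850, edgeR).

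Mmp13 (collagenase-3, ENSMUSG00000050578.11, chr9:7272514-7283331) cuts fibrillar collagen and is the main interstitial collagenase of mice. Before treatment it stood at 1.58 and 1.63 CPM in DDKC_9750, 0.690 and 1.12 CPM in DDKC_9790 and 2.22 and 1.77 CPM in DDKC_9804. In a fit of the untreated libraries alone, which counts paired libraries as separate samples, the test over the 3 lines did not call Mmp13 (adjusted p = 0.0595). Of the pairs of lines in that fit, DDKC_9804 was above DDKC_9790 by 1.02 on the log2 scale (adjusted p = 0.0275), and the other 2 pairs were not called (0.105 and 0.441, all edgeR). On summed counts of both conditions the adjusted p for DDKC_9804 against DDKC_9790 was 0.104 (edgeR). With rDKK3 DDKC_9804 stood at 19.0 and 17.4 CPM, on 88 and 131 counts. That is 9.41-fold above its untreated level (7.13 to 12.6), the largest ratio among the members that had counts in both conditions. The treated level was 1.76 and 1.89 CPM in DDKC_9750 and 0.419 and 0.609 CPM in DDKC_9790, where the ratios of 1.15 (0.640 to 2.00) and 0.546 (0.232 to 1.19) were not distinguishable from 1 at this depth. The log2 fold change over the lines was 1.10 (SE 0.90, adjusted p = 0.748, edgeR), and without line DDKC_9804 it was -0.27.

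Mmp7 (matrilysin, ENSMUSG00000018623.11, chr9:7692091-7699587), an epithelial MMP without the hemopexin domain of its relatives, had counts in the treated libraries of DDKC_9750 alone. These were 6 and 7 counts, or 1.51 and 1.10 CPM, against 0 counts in the other 10 libraries. Set against the floor of 3 counts in the summed untreated sample, the treated level of DDKC_9750 was at least 12.6-fold higher. The gene did not pass the filter on low counts and has no test. Without the filter its adjusted p was 0.571 (edgeR).

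**Figure D2:**
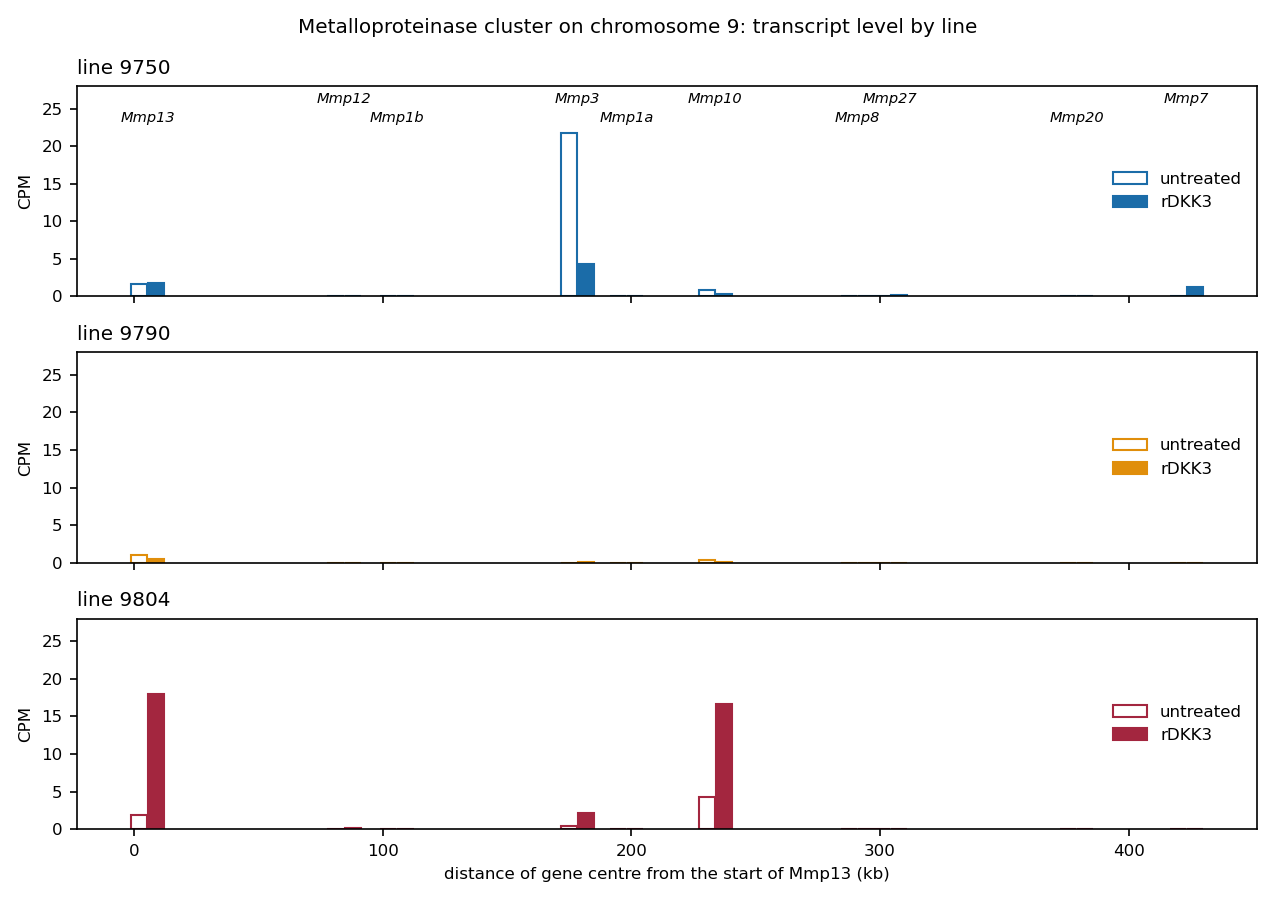
Level in CPM of the 10 MMP genes of the chromosome 9 cluster in the 3 DDKC lines, untreated (open bars) and rDKK3-treated (filled bars), by distance of the gene's centre from the start of Mmp13 in kb, 2 libraries summed per bar. Mmp3 leads in untreated DDKC_9750 at 21.7 CPM, Mmp13 and Mmp10 lead in treated DDKC_9804 at 18.0 and 16.6 CPM, and DDKC_9790 stays under 1 CPM at all 10 genes.

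The inhibitors were expressed in all lines. Timp2 (ENSMUSG00000017466.11, chr11:118191887-118246566, minus strand) was the most abundant of the 10 transcripts. Its untreated level was 1055 and 993 CPM in DDKC_9750, 742 and 725 CPM in DDKC_9790, and 1879 and 1784 CPM in DDKC_9804. With rDKK3 it was 1370 and 1308 CPM, 876 and 857 CPM, and 1356 and 1284 CPM in the same order. The treated libraries were above the untreated ones in DDKC_9750 and DDKC_9790, by 1.32-fold (1.29 to 1.35) and 1.19-fold (1.16 to 1.22), and below them in DDKC_9804, by 1.38-fold (1.36 to 1.41). DDKC_9804 was 1.79-fold above DDKC_9750 untreated and 1.02-fold below it with rDKK3, and 2.48-fold and 1.51-fold above DDKC_9790, while DDKC_9750 was 1.38-fold above DDKC_9790 untreated and 1.53-fold above it with rDKK3. The log2 fold change over the lines was 0.064 (SE 0.20, adjusted p = 0.934, edgeR). Cep295nl, which overlaps Timp2 on the same strand, held 183 counts beside 156724.

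Timp3 (ENSMUSG00000020044.14, chr10:86136236-86185370), the TIMP that stays bound to the matrix and also inhibits ADAM17, separated DDKC_9804 from the other lines. It stood at 194 and 179 CPM in untreated DDKC_9750, 206 and 197 CPM in untreated DDKC_9790, and 1252 and 1163 CPM in untreated DDKC_9804. With rDKK3 it was 174 and 166 CPM, 231 and 216 CPM, and 895 and 844 CPM. All 4 libraries of DDKC_9804 lay above all 8 of the other lines. The ratio of treated to untreated level was 0.920 in DDKC_9750 (0.872 to 0.972), 1.12 in DDKC_9790 (1.07 to 1.16) and 0.725 in DDKC_9804 (0.710 to 0.741), and over the lines the log2 fold change was -0.14 (SE 0.16, adjusted p = 0.814, edgeR).

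Timp1 (ENSMUSG00000001131.12, chrX:20736405-20740974), an inducible inhibitor that also acts as a secreted signal through CD63, was also highest in DDKC_9804, with DDKC_9790 the lowest line. It was at 26.2 and 27.8 CPM in untreated DDKC_9750, 17.1 and 16.6 CPM in untreated DDKC_9790, and 138 and 134 CPM in untreated DDKC_9804. With rDKK3 the values were 22.6 and 23.8 CPM, 12 and 12.1 CPM, and 181 and 179 CPM. Timp1 was the one inhibitor with a higher treated level in DDKC_9804, by 1.33-fold (1.26 to 1.40), beside ratios of 0.865 in DDKC_9750 (0.746 to 0.999) and 0.723 in DDKC_9790 (0.611 to 0.854). Over the lines the log2 fold change was -0.071 (SE 0.19, adjusted p = 0.924, edgeR).

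**Figure D3:**
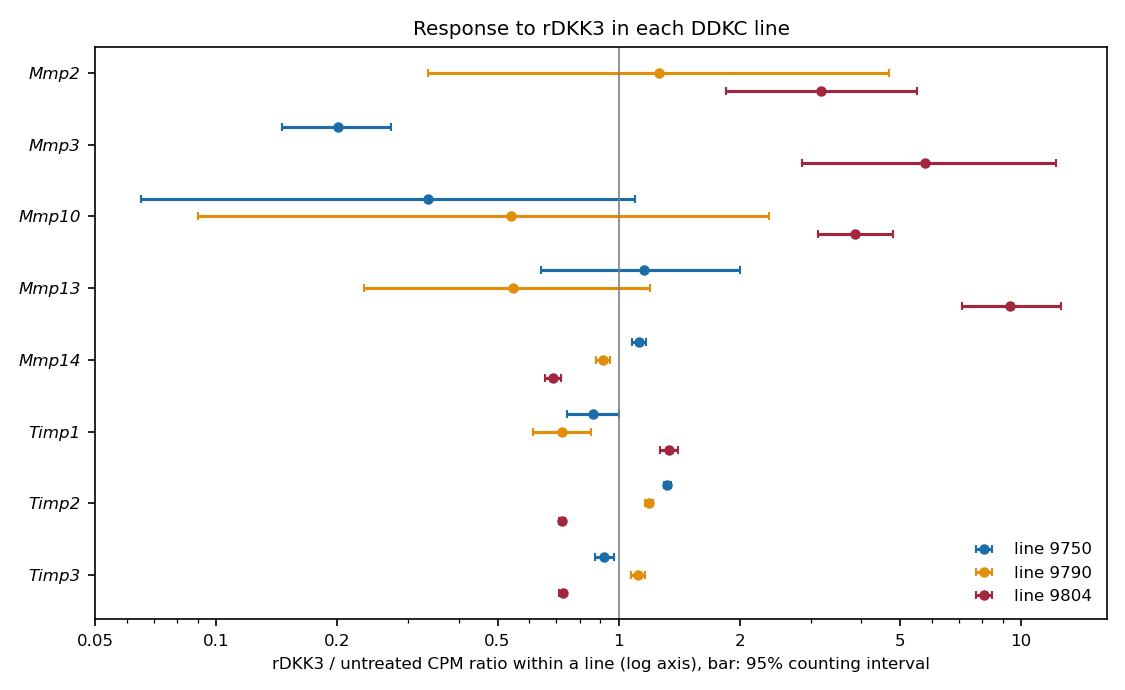
Ratio of rDKK3-treated to untreated level within each DDKC line on a log axis, for the members with counts in both conditions, with bars for the 95% exact interval of counting error. In DDKC_9804 Mmp2, Mmp3, Mmp10, Mmp13 and Timp1 lie above 1 and Mmp14, Timp2 and Timp3 below it, while Mmp3 lies at 0.201 in DDKC_9750.

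The effect of rDKK3 over the 3 lines was tested with the line as the block. Of the 10 members 7 passed the filter on low counts and 0 were called at an adjusted p under 0.05, beside 0.00657% of the 15214 genes tested, which is the single gene Lcn2 (edgeR). None of the 7 had an unadjusted p under 0.05, against 1268 of all genes, and DESeq2 called 0 members as well. With the 12 libraries as separate samples, 8 members were tested and 0 called, beside 18.0% of the 15165 genes, and with the shift between paired libraries in the model 1 was called, Mmp2, beside 20.6%, which summed counts with no filter did not call (adjusted p = 0.938, edgeR). The median log2 fold change was -0.071 over the 7 members and -0.0063 over all genes tested. The standard errors of Mmp3, Mmp10 and Mmp13 over the 3 lines were 1.27, 0.78 and 0.90 on the log2 scale, and those of the other 4 were 0.16 to 0.20.

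Whether the response depended on the line was tested as an interaction of line and treatment over the 12 libraries, an analysis added after the values had been seen. Of the 8 members tested, 7 were called, beside 51.3% of all genes, and Mmp2 was not (adjusted p = 0.441, edgeR). Paired libraries count as independent replicates in this test although they agreed within sampling noise only with the shift between them in the model, which this test lacks, so it compares these libraries and does not measure the variation between cultures.

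More members were called between lines than for rDKK3. In the test over the 3 lines, with treatment in the model, 4 of the 7 members were called, Timp1 (adjusted p = 0.00245), Timp3 (0.00263), Mmp10 (0.0203) and Mmp3 (0.0383), beside 32.9% of the 15214 genes (edgeR). Timp2 (0.0654), Mmp13 (0.130) and Mmp14 (0.130) were not. DESeq2 on the same summed counts called Timp2 (adjusted p = 0.00654) and Mmp13 (0.0230) as well, but not Mmp14 (0.109). With no filter on low counts, Timp2 (0.00879) and Mmp2 (0.000675, both edgeR) were called. The median over the 7 members of the largest difference between 2 lines was 3.13 on the log2 scale, beside 0.75 over all genes tested. That median is the difference of Mmp13 between DDKC_9804 and DDKC_9790, which was not called (adjusted p = 0.104, edgeR). Mmp3, Mmp10 and Mmp13 rest on few counts in most samples. The call of Mmp3 was lost when the treated library of DDKC_9790 with the single count was left out (adjusted p = 0.0743), in the libraries of the lower label numbers alone, 1 of each pair (0.0603), and with no filter on low counts (0.310, all edgeR).

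Between DDKC_9804 and DDKC_9750, 3 of the 7 members were called, beside 16.6% of genes. Timp1 was higher in DDKC_9804 by 2.64 on the log2 scale (SE 0.24, adjusted p = 0.00390), Timp3 by 2.53 (SE 0.20, 0.00297) and Mmp10 by 3.71 (SE 0.86, 0.0453, all edgeR). The adjusted p of Mmp10 was 0.0548 without the first untreated library of DDKC_9750 and 0.0546 without its first treated library, 0.0609 after thinning to equal depth, 0.0719 with no filter on low counts and 0.0527 in the libraries of the higher numbers alone (edgeR). Between DDKC_9804 and DDKC_9790, 4 members were called, beside 20.8% of genes. Timp1 was higher in DDKC_9804 by 3.45 (SE 0.25, adjusted p = 0.00263), Timp3 by 2.26 (SE 0.20, 0.00383), Mmp10 by 5.24 (SE 0.95, 0.0225) and Timp2 by 0.97 (SE 0.25, 0.0464, all edgeR). The call of Timp2 was lost when 1 of 4 libraries was left out, the second untreated library of DDKC_9790 (adjusted p = 0.0535), its second treated library (0.0577), the second untreated library of DDKC_9804 (0.0528) or its first treated library (0.0523, all edgeR). Between DDKC_9790 and DDKC_9750, 1 member was called, beside 25.6% of genes. This was Mmp3, lower in DDKC_9790 (adjusted p = 0.0293, edgeR), and the call was lost without the second treated library of DDKC_9790 (0.0575) and with no filter on low counts (0.244). The difference of Timp1 between DDKC_9790 and DDKC_9750, -0.81 on the log2 scale (SE 0.24), had an adjusted p of 0.0585 (edgeR) and was called with DESeq2 (0.0323) and with no filter on low counts (0.0141), and all 4 libraries of DDKC_9790 lay below those of DDKC_9750. That of Timp3 was 0.27 (SE 0.19, adjusted p = 0.342, edgeR).

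Per kb of canonical transcript, which makes levels comparable between genes, Mmp14 made up 89.8% of the summed level of the 7 listed MMPs in untreated DDKC_9750, 99.3% in DDKC_9790 and 96.5% in DDKC_9804. With rDKK3 its share was 96.7% in DDKC_9750 and 99.5% in DDKC_9790, and it was 79.2% in DDKC_9804, where Mmp13 and Mmp10 made up most of the rest. The other listed MMPs, all secreted, thus stood at 10.2% untreated and 3.33% treated in DDKC_9750 and at 3.48% and 20.8% in DDKC_9804. These shares depend on which MMPs are summed. Over all 23 Mmp genes looked up, Mmp14 was 68.0% untreated and 69.7% treated in DDKC_9750, 81.4% and 78.9% in DDKC_9790, and 76.0% and 62.5% in DDKC_9804. The secreted genes among the 23, which add Mmp11, Mmp19 and Mmp28 among others, summed to 43.2 CPM per kb untreated and 42.0 treated in DDKC_9750, 17.4 and 18.9 in DDKC_9790, and 27.3 and 38.7 in DDKC_9804. The 6 secreted members were below the other secreted MMPs in all 6 samples, at 13.1 against 30.0 CPM per kb untreated and 4.46 against 37.5 treated in DDKC_9750, 0.626 against 16.8 and 0.430 against 18.5 in DDKC_9790, and 3.68 against 23.7 and 18.4 against 20.3 in DDKC_9804. The summed level of the 7 members was 129 and 134 CPM per kb in untreated and treated DDKC_9750, 92.3 and 84.2 in DDKC_9790, and 106 and 88.3 in DDKC_9804. The summed TIMP level was 337 and 416 CPM per kb in DDKC_9750, 255 and 292 in DDKC_9790, and 879 and 724 in DDKC_9804. The 3 TIMPs exceeded the 7 listed MMPs in all 6 samples, by 2.62-fold and 3.10-fold in untreated and treated DDKC_9750, 2.76-fold and 3.47-fold in DDKC_9790, and 8.32-fold and 8.20-fold in DDKC_9804, and over the 23 MMPs the ratio was 1.99 to 6.55. Timp2 was 79.9% of the TIMP level in untreated DDKC_9750 and 76.4% in DDKC_9790, and 54.9% in DDKC_9804, where Timp3 was 28.6% and Timp1 16.4%. With rDKK3 the share of Timp2 was 85.4%, 79.4% and 48.3% in the same order.

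**Figure D4:**
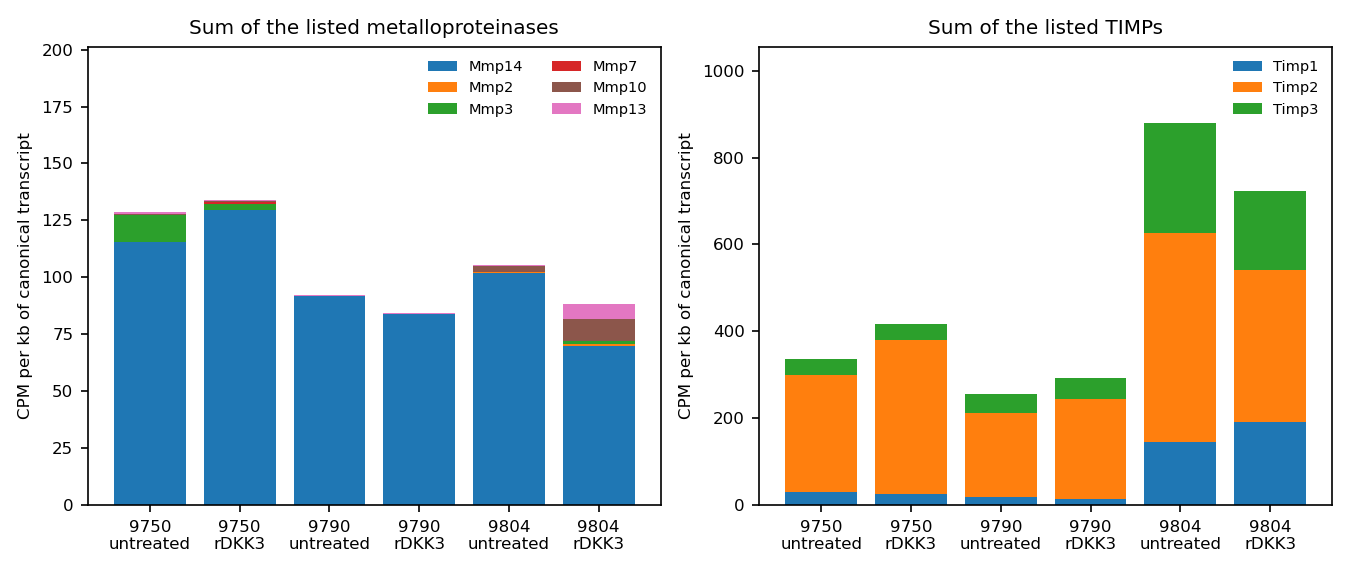
Summed level of the MMP members (left) and of the TIMPs (right) in CPM per kb of canonical transcript, in the 6 samples of line and treatment. Mmp14 fills most of each MMP bar, the share of the 6 secreted members is largest in treated DDKC_9804 at 20.8%, and the TIMP bars of DDKC_9804 reach 879 untreated and 724 with rDKK3.

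Other genes of the MMP system were taken from written lists. Calls for rDKK3 below are on summed counts. With 12 separate libraries, 18.0% of all genes were called for rDKK3. In that fit 2 activators were lower, and 2 binding partners or receptors were higher and 1 lower. Of the AP-1 and ETS factors 2 were higher and 1 lower, and of the ADAM and ADAMTS proteases 1 was higher and 1 lower. Of 16 further MMPs 7 passed the filter, 0 were called for rDKK3 and 6 differed between lines, where 32.9% of all genes did. Mmp15, the membrane-anchored relative of Mmp14 (MT2-MMP), was lower than in DDKC_9750 in both other lines, with log2 differences of -4.04 in DDKC_9790 (SE 0.76, adjusted p = 0.0227) and -4.51 in DDKC_9804 (SE 0.80, 0.0238, edgeR). Mmp11, Mmp17 and Mmp19 also differed between lines, with largest log2 differences of 1.45, 2.91 and 1.81. Of the other inhibitors, Timp4 had at most 2 counts in a sample, and Reck, a membrane-anchored MMP inhibitor, was lower in DDKC_9790 than in DDKC_9750 by 3.05 (SE 0.48, adjusted p = 0.0134, edgeR).

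Among 10 genes of proenzyme activation, 7 were tested, 0 were called for rDKK3 and 4 differed between lines (32.9% of all genes), Plat, St14, Pcsk6 and Plaur. Plat, which encodes the tissue-type plasminogen activator, had the largest of these differences, 2.79 on the log2 scale between DDKC_9750 and DDKC_9790 (SE 0.17, adjusted p = 0.00248, edgeR). With 12 libraries as separate samples, Plat (adjusted p = 0.000207) and Pcsk6 (0.00832, both edgeR) were called lower with rDKK3. On summed counts their adjusted p was 0.595 and 0.624 (edgeR). Furin, the convertase that activates MT1-MMP, was at 302 CPM untreated and 338 CPM treated in DDKC_9750, 223 and 254 CPM in DDKC_9790, and 242 and 239 CPM in DDKC_9804. Plau, the urokinase gene, stood at 9.55 CPM untreated and 2.13 CPM treated in DDKC_9750, 10.7 and 7.28 CPM in DDKC_9790, and 20.2 and 29.0 CPM in DDKC_9804. It was called neither for rDKK3 nor between lines. Mmp3, Mmp10 and Mmp13 had the same direction in DDKC_9804, and Mmp3 in DDKC_9750, where the ratio of Mmp13 was 1.15.

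Of 7 binding partners and receptors, all tested, 2 differed between lines, near the 32.9% of all genes, and 1, Lcn2, was called for rDKK3. Lcn2 encodes lipocalin-2, a secreted protein known to bind MMP9 and shield it from degradation. It had 1818 counts untreated and 46010 counts treated in DDKC_9750, 0 and 1 in DDKC_9790 and 2 and 95 in DDKC_9804 (log2 fold change 6.30, SE 0.24, adjusted p = 0.00872, edgeR). Its partner Mmp9 had 0 counts in the same libraries. Bsg, which encodes the MMP inducer CD147, was lower in DDKC_9804 than in DDKC_9790 by 1.27 on the log2 scale (SE 0.27, adjusted p = 0.0298, edgeR).

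Of 13 AP-1 and ETS factors, all tested, 0 were called for rDKK3 and 7 differed between lines (32.9% of all genes), with Fosb, Etv1, Jun and Etv4 leading at 2.34, 1.97, 1.83 and 1.48 on the log2 scale. Fosl1, which encodes the AP-1 subunit FRA1, was at 28.4 CPM untreated and 8.53 CPM treated in DDKC_9750, at 123 CPM in both conditions of DDKC_9790, and at 72.7 and 157 CPM in DDKC_9804. Mmp3 was likewise lower with rDKK3 in DDKC_9750 and higher in DDKC_9804. Fos went the other way, at 57.6 CPM untreated and 137 CPM treated in DDKC_9750, 33.3 and 26.2 CPM in DDKC_9790, and 50.9 and 8.12 CPM in DDKC_9804. Neither was called for rDKK3 over the lines (adjusted p = 0.959 for Fosl1 and 0.870 for Fos, edgeR). In the test of differences between the 3 lines neither was called (0.0599 and 0.207, edgeR). Of the pairs of lines, Fosl1 was higher in DDKC_9790 than in DDKC_9750 by 2.72 (SE 0.67, adjusted p = 0.0421, edgeR). What part these factors had in the MMP levels was not tested.

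Of 18 ADAM and ADAMTS proteases, which TIMP3 inhibits in part, 15 were tested, 0 were called for rDKK3 and 8 differed between lines (32.9% of all genes). Adamts2, a procollagen peptidase, was lower in DDKC_9790 than in DDKC_9804 by 7.14 on the log2 scale (SE 0.48, adjusted p = 0.00210, edgeR). Adamts9 differed by 4.80 between DDKC_9750 and DDKC_9804 (SE 0.27, adjusted p = 0.00151, edgeR), and Adamts7 and Adamts1 had largest differences of 3.33 and 2.94.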

How the data were processed

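RNA was measured in 12 libraries of the lines DDKC_9750, DDKC_9790 and DDKC_9804, grouped by line and treatment as labelled. The authors aligned read pairs to GRCm39 with STAR 2.7.9a and deposited raw counts per gene, counted by strand without normalization. The authors tested with DESeq2 1.38.0, whose model formula is not given in the sources used here. Here the 2 libraries of a line and condition were summed. The main test was edgeR 4.0.16 (R 4.3.3, limma 3.58.1), quasi-likelihood, with TMM, filterByExpr over condition, line and condition in the model, and Benjamini-Hochberg adjustment over all 15214 genes tested, threshold 0.05. Pairing of treated and untreated samples comes from the line named in the labels. Ratios within a line carry exact conditional 95% intervals of the counts, and the floor was 3 counts. Lengths are of canonical GENCODE transcripts. DESeq2 1.42.0 was an alternative. Tests were checked on simulated counts. The members and gene lists were chosen with earlier results of these data known. All 10 members were named, and of each list at most the 4 genes called with the largest difference, plus Fos, Fosl1 and Lcn2. Furin, Plau, Timp4, Mmp28 and the neighbours in the chromosome 9 cluster were named after their values were seen. One allele of the mouse model is not reported here.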

Additional observations from a re-analysis of the deposited data

Results flagged for a closer look

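The response to rDKK3 differed between the lines DDKC_9750, DDKC_9790 and DDKC_9804 for 7 members, in a line-by-treatment test of the 12 libraries (edgeR, adjusted over 15165 genes, chosen after seeing the data). Timp2, with treated to untreated ratios of 1.32, 1.19 and 0.724 in these lines, had an adjusted p of 6.33e-08 (edgeR). Mmp14, with ratios of 1.12, 0.913 and 0.686, had an adjusted p of 1.20e-06 (edgeR). Mmp13, with ratios of 1.15, 0.546 and 9.41, had an adjusted p of 1.72e-06 (edgeR). Timp1, with ratios of 0.865, 0.723 and 1.33, had an adjusted p of 2.79e-06 (edgeR). Mmp3, at 0.201 in DDKC_9750 and 5.76 in DDKC_9804, had an adjusted p of 6.58e-06 (edgeR). Timp3, with ratios of 0.920, 1.12 and 0.725, had an adjusted p of 5.13e-05 (edgeR), and Mmp10, with 0.336, 0.539 and 3.87, one of 9.83e-05 (edgeR). The adjusted p-values treat paired libraries as independent, and 51.3% of all genes passed the same test.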

How the results depend on the processing

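The count of genes called for rDKK3, 1 on summed counts, was 2733 with 12 separate libraries and 3126 with their number series as a covariate, 97 with DESeq2, 62 with no filter on low counts, 0 after thinning to equal depth, and 0 with no replicate block, and from 0 to 2 when a line or library was left out (0 without line DDKC_9750, without line DDKC_9790 and without the second treated library of DDKC_9790, 2 without line DDKC_9804). The block changed no member's call. The count of members called for rDKK3 stayed at 0 except with the number series, where Mmp2 made it 1. Genes called between lines numbered 4998, and 11776 with 12 libraries, 12207 with the number series, 12074 in untreated and 11698 in treated libraries alone. Members called between lines numbered 4, and 8 with 12 libraries, 8 with the number series, 8 in treated libraries alone and 2 in the libraries of the lower numbers. They numbered 6 with DESeq2, 6 in untreated libraries alone, 5 with no filter on low counts and 3 without the second treated library of DDKC_9790. The cause of these shifts was not tested. Of 165 values of members' responses to rDKK3 under alternatives, 154 kept direction and call, and 11 turned direction. Mmp3 (log2 fold change -0.21) was 0.56 with DESeq2 and ran from -2.14 to 0.0087 when a line or library was left out. The same range was -0.27 to 1.87 for Mmp13, -0.33 to 0.018 for Mmp14, -0.34 to 0.12 for Timp1, -0.10 to 0.32 for Timp2, 0.48 to 1.47 for Mmp10 (0.56 with no omission, 1.47 without DDKC_9750, 0.85 without its second treated library, 0.073 with DESeq2) and -0.28 to 0.020 for Timp3. These ranges lack Mmp10 without DDKC_9804 and Mmp3 without DDKC_9750, where the gene did not pass the filter on low counts. DDKC_9804 was the only line in which Mmp10 was higher with rDKK3, so its range does not show a response shared by the lines. With no replicate block Timp1 was 0.27 and Timp2 was -0.014, and Mmp3 was -1.77, Mmp10 1.63 and Mmp13 2.17 (-0.21, 0.56 and 1.10 with the block). Of 459 values of line differences, 403 kept direction and call, 43 gained and 11 lost the call, and 2 turned direction, Mmp14 between DDKC_9804 and DDKC_9790 (0.12 in untreated libraries alone) and Timp2 between DDKC_9804 and DDKC_9750 (-0.00057 in treated libraries alone). Mmp2, Mmp3, Mmp7, Mmp10 and Mmp13 rest on few counts in most samples (Mmp3 on 0 to 45 and Mmp13 on 10 to 67 in 5 of 6), and levels under 0.0855 to 0.291 CPM cannot be told from 0.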

Other observations

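Adamts5 and Adamts15, proteases of aggrecan and versican that did not pass the filter on low counts, were named after their values were seen. Adamts5 had 16 counts untreated and 234 counts treated in DDKC_9750, against 0 and 1 in DDKC_9790 and 9 and 3 in DDKC_9804. Adamts15 had 280 counts untreated and 651 counts treated in DDKC_9750, and at most 2 counts in a sample of the other lines. Both were thus counts of line DDKC_9750 in the main, as Mmp7 and Mmp3 were.

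For each member tested, the gene with the most similar log2 CPM over the 6 samples, of 12829 genes compared, was Flt4 for Mmp3 (Pearson r = 0.994), Lrrc20 for Mmp10 (0.999), Kctd3 for Mmp13 (0.990), Txndc15 for Mmp14 (0.998), Abi2 for Timp1 (0.997), Hdhd2 for Timp2 (0.993) and Gm56350 for Timp3 (0.997). With 6 samples from 3 lines these are descriptions, chosen as the highest of many.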
